A study of Drosophila melanogaster with 36 samples.

Results

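The genes described here encode the proteins of the mitochondrial ribosome. All genes of the Affymetrix Drosophila Genome 2.0 platform whose symbol starts with mRpL or mRpS followed by a number were taken, when a probe set named that gene alone. With 1 probe set per gene, the one with the highest mean over all arrays, this gave 69 of the 11982 genes measured. By the letter L or S in the symbol alone, 44 were counted as large-subunit and 25 as small-subunit genes, here and below. Of the genes with such a symbol in the gene table, mRpL34 and mRpL37 had no probe set of their own, and mRpL53 and mRpS10 shared one with another gene, so that none of these 4 was read. The small-subunit genes tko and bonsai carry other kinds of symbol and are named below as non-members.

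Mitochondria keep their own small genome and a ribosome of bacterial descent to translate it. In animals that ribosome makes only core subunits of the respiratory chain and of the ATP synthase, while every protein of the ribosome itself is encoded in the nucleus, made by cytosolic ribosomes and imported. Many of these proteins have bacterial counterparts, and others are found only in mitochondria. No sequences are shown, since the reference used here held gene names and positions only.

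Gene expression was measured in Kc167, a Drosophila embryonic line with hemocyte-like features, grown, per the series design, as 4 separate cultures of this 1 line, with no label saying whether a replicate number marks the same culture across groups. Medium was exchanged a day after plating for medium without (control) or with methyl methanesulfonate (MMS), an alkylating agent that methylates DNA and other molecules, at 40 μg/mL. RNA was taken from control cells at 0, 1, 8, 24 and 72 h and from MMS-treated cells at 1, 8, 24 and 72 h, with 4 arrays in each of the 9 groups. The values are log2 signals after robust multi-array averaging (RMA), a scheme that makes the arrays' distributions alike, so every change is relative to the other genes on the array and not per cell. In bulk RNA, fewer cells of a kind and less RNA per cell cannot be told apart.

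The label was checked against 15 hemocyte genes. Hml, srp, Col4a1 and He lay at or above the 88.6th percentile of all genes, and eater and vkg at the 85th and 86.7th. Sr-CI (33.8th), PPO1 (34.6th), gcm (25.3rd) and lz (between 3.03 and 3.43 on every array) were low, and NimC1 (52.8th), crq (60th), Pxn, Ppn and ush (78.4th) lay between. Muscle genes were near the floor. Of the germline genes aub was at the 82.3rd percentile, bam at the 57.7th and vas at the 15.2nd. Neuron genes lay from the 37.7th (futsch) to the 53.8th (brp) percentile, and fat body genes from the 14.2nd (Yp1) to the 46.6th (Fbp1). Arrays of a group correlated at 0.9825 to 0.9984. The 8 arrays of 8 h stood apart in RNA quality measures. Their 18S ribosomal RNA 5′ control probe set read 10.56 to 11.33 against 3.44 to 6.65 on the other 28 arrays, and the mean 3′ minus 5′ difference of the actin, GAPDH and eIF-4a control probe sets was 1.42 to 1.67 against 0.50 to 0.72. The part of these differences in the 8 h results was not tested.

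The members were well expressed. Their mean signals over the 36 arrays ran from 7.64 (mRpL33) to 11.52 (mRpL30) with a median of 9.69, and all 69 lay above 5.55, the median of all genes. Averaged over the members, the log2 signal per array was 9.86 ± 0.28 (SD, n = 4) in control cells at 0 h, 9.84 ± 0.22 at 1 h, 10.17 ± 0.06 at 8 h, 9.87 ± 0.13 at 24 h and 8.84 ± 0.16 at 72 h. In MMS-treated cells it was 9.86 ± 0.42 at 1 h, 9.96 ± 0.05 at 8 h, 9.73 ± 0.15 at 24 h and 8.55 ± 0.28 at 72 h. The 8 arrays of 72 h, from 8.30 to 9.05, all lay below the other 28, of which the lowest was 9.42. At 8 h the highest MMS array, 10.03, was below the lowest control array, 10.11, and at 1, 24 and 72 h the ranges of treated and control arrays overlapped.

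**Figure D1:**
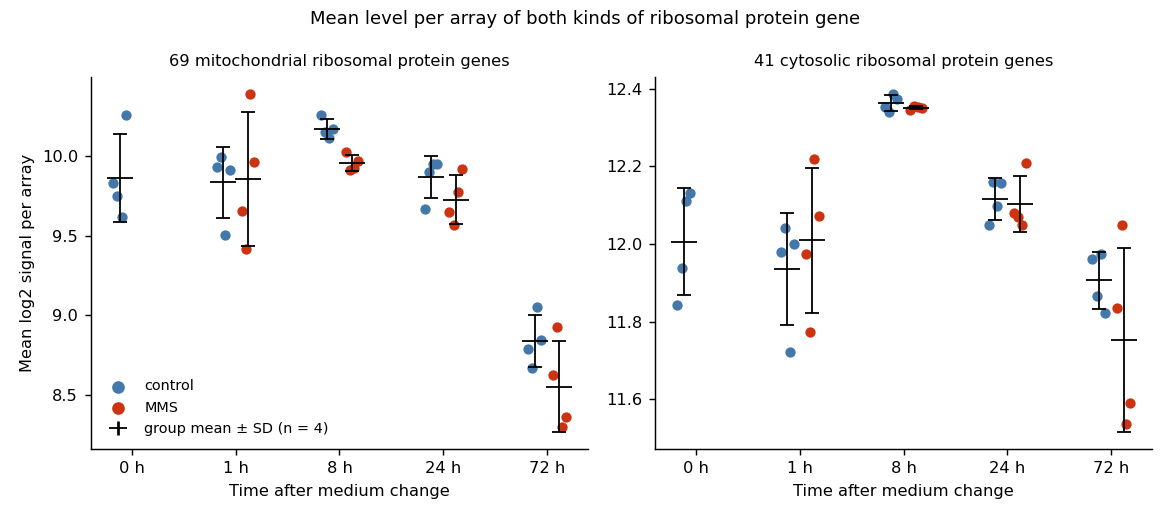
Mean log2 signal on each array (y axis) by time after the medium change (x axis) for the 69 mitochondrial ribosomal protein genes (left) and 41 cytosolic ribosomal protein genes (right, on a narrower axis), with points for arrays and bars for the group mean ± SD of 4 arrays. The mitochondrial mean in control cells was 9.86 at 0 h and 8.84 at 72 h, whereas the cytosolic mean was 12.01 and 11.91.

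Most members fell in untreated cells over time. Control cells at 72 h were compared with control cells at 0 h to follow the culture without the agent. Of the 69 members, 60 fell and 1 rose, against 19.8% of all genes lower and 16.7% higher (limma with Benjamini-Hochberg adjustment over all 11982 genes, adjusted p under 0.05). The median change was -0.98 on the log2 scale, against -0.01 over all genes. In all, 33 members fell at least 2-fold, for which the share of all genes was not counted. Both subunits took part, with 40 of 44 large-subunit genes (median -1.04) and 20 of 25 small-subunit genes (median -0.79) lower. In 42 members every 72 h array lay below every 0 h array, which held for 16.3% of all genes.

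mRpL36, the counterpart of a very small bacterial large-subunit protein, fell most. Its log2 signals in control cells were 8.67, 9.24, 9.73 and 10.03 at 0 h and 6.73, 6.43, 6.88 and 6.35 at 72 h. The groups were far apart, and the change of -2.82 ± 0.35 (SE) was a 7.06-fold decrease (limma adjusted p = 3.37e-08). mRpS14, a small-subunit protein with a bacterial counterpart, read 8.85, 9.58, 10.24 and 10.23 at 0 h and 7.18, 6.77, 7.17 and 6.72 at 72 h. It also showed no overlap, with a 6.80-fold decrease (log2 change -2.77 ± 0.35, limma adjusted p = 5.71e-08). mRpL27, whose bacterial counterpart reaches the peptidyl transferase centre, fell 5.25-fold, and mRpL20, an assembly protein of the large subunit in bacteria, fell 4.90-fold. mRpS33, mRpS18C, mRpS18A, mRpS16, mRpL52, mRpS21, mRpL51 and mRpL54 followed, with log2 changes from -2.23 to -1.67, and mRpL42, mRpL14, mRpL16, mRpL47 and mRpL13 were among the others past 2-fold (-1.41 to -1.06).

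Several members were read for their known roles. mRpL2 and mRpL3, which in bacteria help to build the peptidyl transferase centre, both changed by -1.32 (SE 0.17 and 0.11). For mRpL3 the control values were 10.81, 10.58, 10.32 and 10.83 at 0 h and 9.07, 9.10, 9.52 and 9.58 at 72 h, so that the lowest early array was above the highest late one. mRpL12, the stalk protein that recruits elongation factors, fell by 1.06 ± 0.14, and mRpL44, which has a ribonuclease III-like fold, by 1.31 ± 0.13. In the small subunit mRpS7 fell by 0.67 ± 0.15, mRpS2 by 0.37 ± 0.14 and mRpS11 by 0.44 ± 0.16, all smaller changes than those of mRpL2, mRpL3 and mRpL12. mRpS30, which despite its name sits in the large subunit in mammals, fell by 1.05 ± 0.09. The 3 genes related to bacterial S18 differed: mRpS18C changed by -2.22 ± 0.26, mRpS18A by -2.05 ± 0.25 and mRpS18B by -0.48 ± 0.15.

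Only mRpS5 rose. This small-subunit protein, whose bacterial counterpart lies at the messenger RNA entry, read 10.69, 10.72, 10.99 and 10.54 in control cells at 0 h, 11.18, 11.27, 11.40 and 11.43 at 24 h and 11.43, 11.26, 11.46 and 11.71 at 72 h. All late arrays were above all 0 h arrays, and the changes were 0.59 ± 0.16 at 24 h (limma adjusted p = 0.00959) and 0.73 ± 0.16 at 72 h (adjusted p = 0.000341). The other 8 members that did not pass the test at 72 h were mRpL28, mRpL33, mRpL39, mRpL45, mRpS9, mRpS22, mRpS23 and mRpS34. mRpL39, related to threonyl-tRNA synthetases, read 10.79, 10.45, 10.06 and 10.87 at 0 h and 10.31, 10.30, 10.59 and 10.45 at 72 h, with the 72 h arrays inside the 0 h range (change -0.13 ± 0.14, limma adjusted p = 0.537). mRpL55 (-1.21 ± 0.46, limma adjusted p = 0.0388) lost its call without control 72 h replicate 2 (0.0658), control 72 h replicate 4 (0.124), control 0 h replicate 3 (0.223) or control 0 h replicate 4 (0.083). In all, 2 members were called higher without control 72 h replicate 4 or control 0 h replicate 4.

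**Figure D2:**
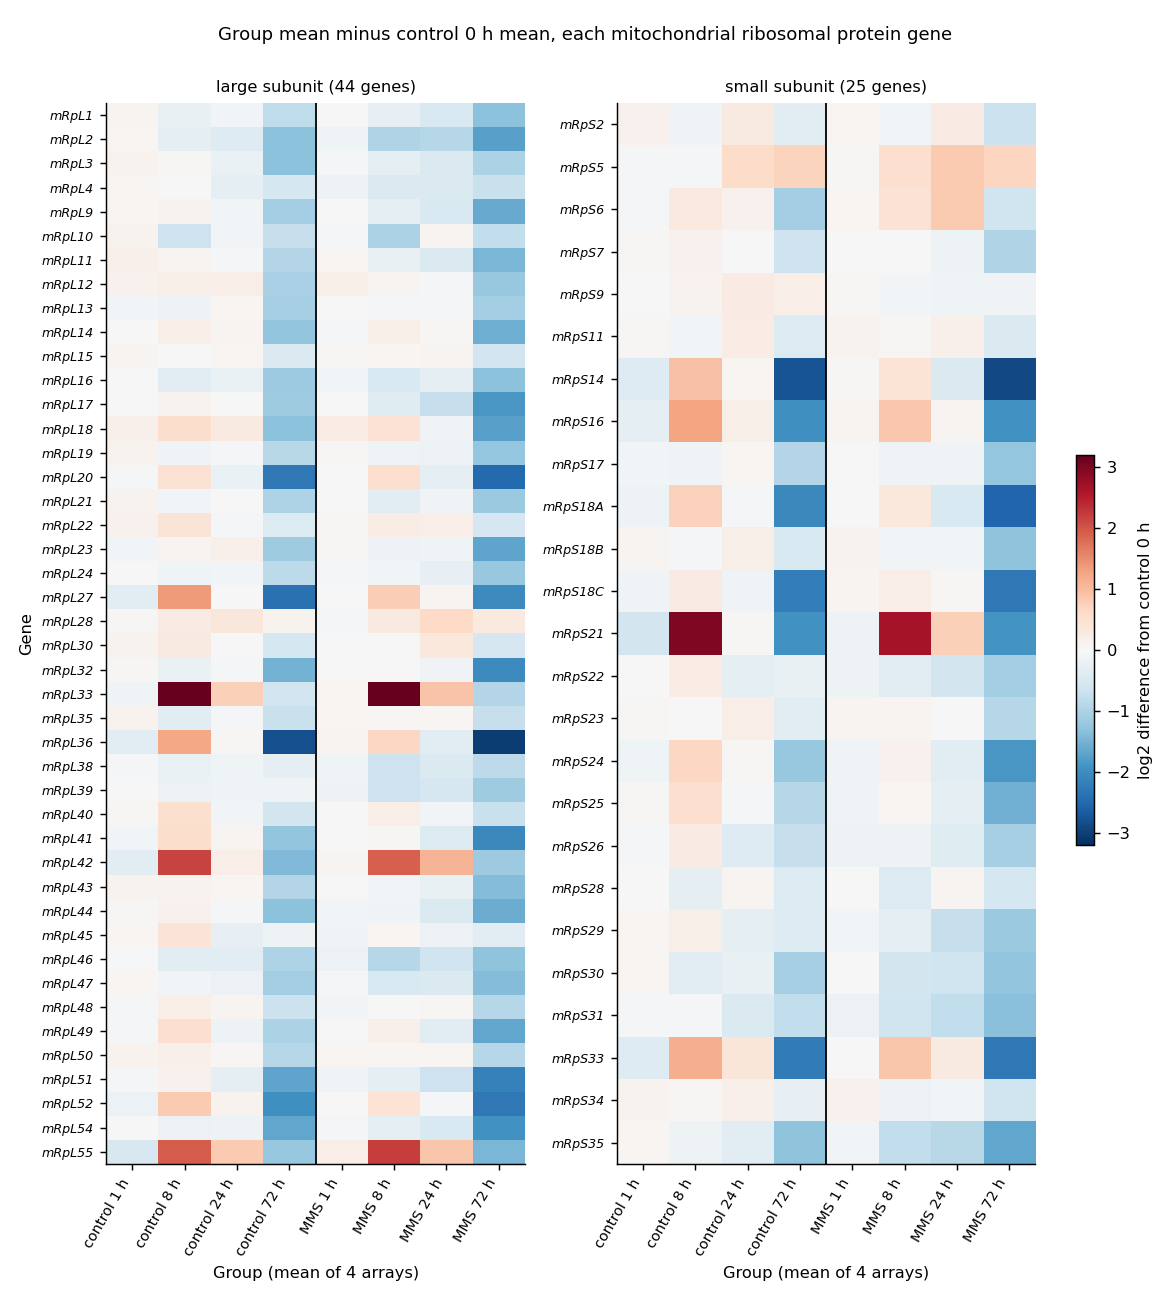
Difference of each group mean (4 arrays) from the control 0 h mean, on the log2 scale, for every member of the large (left) and small (right) subunit, with control groups left and MMS groups right of the black line. The 72 h columns are the bluest in both blocks, mRpS5 is red at 24 and 72 h, and mRpL33, mRpS21, mRpL42 and mRpL55 are the reddest at 8 h.

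The decrease lay between 24 and 72 h. At 24 h only mRpS31 was lower than at 0 h (-0.48 ± 0.13, limma adjusted p = 0.00906) and mRpS5, mRpL28 and mRpS9 were higher, against 10.8% of all genes lower and 4.82% higher, and the median member change was -0.01 (-0.156 without control 0 h replicate 3, 0.134 without control 0 h replicate 4). The calls of mRpS9 (0.24 ± 0.08) and mRpL28 (0.35 ± 0.11) rested on single arrays. Without control 0 h replicate 3 their adjusted p were 0.23 and 0.185, while the count of lower members went from 1 to 10, and without control 24 h replicate 3 they were 0.132 and 0.0989. mRpS9 also lost its call without control 24 h replicate 2 (0.0865), control 24 h replicate 4 (0.0874) or control 0 h replicate 1 (0.0627), mRpL28 without control 0 h replicate 2 (0.0606), and mRpS31 without control 0 h replicate 1 (0.055).

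From 24 to 72 h, a comparison added after the data were seen, 57 members fell and 0 rose in control cells (14.9% of all genes lower, 15% higher; median -0.92). In MMS-treated cells 65 fell and 0 rose over the same interval (19.9% lower, 22.3% higher; median -0.995). These contrasts use separate arrays and share each gene's estimate of the spread. The 57 genes of the control list were all among the 65 of the MMS list, which left out only 4 members, and made up 87.7% of it. Over all genes the calls lower in both were 61.1% of the control list and 45.7% of the MMS list. The 8 genes called only with MMS were mRpL28, mRpL38, mRpL39, mRpS22, mRpS26, mRpS29, mRpS31 and mRpS34. mRpL4, mRpL45, mRpS5 and mRpS9 were lower in neither.

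Genes around the mitochondrial ribosome were read from lists. Over all genes 19.8% were lower and 16.7% higher in control cells at 72 h against 0 h. In control cells at 72 h against 0 h, 12 of 14 mitochondrial aminoacyl-tRNA synthetases, which charge the organelle's tRNAs, were lower (1 higher, median -0.79), as were 11 of 14 genes of mitochondrial transcription and RNA processing and 5 of 8 translation factors (1 higher, median -0.52). The release factor mRF1 changed by -1.44 ± 0.11 and ArgRS-m by -1.26 ± 0.10. Of 75 respiratory chain and ATP synthase genes, a list that includes paralogues, 46 were lower and 2 higher (median -0.52). Of 41 cytosolic ribosomal protein genes, paralogues included, 4 were lower and 2 higher (median -0.03), and of 16 mitochondrial chaperones and proteases 3 were lower and 4 higher. The non-members tko and bonsai, both small-subunit proteins, fell by 1.28 ± 0.15 and 0.89 ± 0.13. From 24 to 72 h, 3 of the 41 cytosolic genes were lower and 1 higher in control cells (median -0.08). In MMS-treated cells 19 were lower and 3 higher over that interval (median -0.17), against 19.9% and 22.3% of all genes.

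MMS was then compared with control cells of the same time, to find what the agent added. At 1 h 0 members passed the test in either direction, and 0% of all genes did. The lowest adjusted p of a member was 0.836, and 0 members had an unadjusted p under 0.05 by limma. The median change was -0.04, and it ran from -0.198 without MMS 1 h replicate 3 to 0.065 without MMS 1 h replicate 2.

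At 8 h of MMS 13 members fell and 1 rose, against 11.5% of all genes lower and 8.85% higher. The median change was -0.24, against -0.02 over all genes. The lower members were mRpL2, mRpS35, mRpS22, mRpL46, mRpS31, mRpS29, mRpL17, mRpL39, mRpL4, mRpL38, mRpL45, mRpL3 and mRpS30, 8 of the large and 5 of the small subunit, and their changes ran from -0.67 to -0.24. In 36 members every MMS array lay below every control array, which held for 14.8% of all genes, and in 4 members every MMS array lay above (9.66% of all genes). Fitted on the 8 h arrays alone, 33 members were lower and 3 higher, against 13.9% and 10.2% of all genes. The count of lower members was 8 without MMS 8 h replicate 2, control 8 h replicate 1 or control 8 h replicate 2, and 2 members were higher without control 8 h replicate 3.

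mRpL2 changed most among the called members at 8 h. Its control values were 10.48, 10.29, 10.03 and 10.34 and its MMS values 9.85, 9.51, 9.54 and 9.56. The groups did not overlap, and the decrease was 1.59-fold (log2 change -0.67 ± 0.17, limma adjusted p = 0.00513). mRpS35, a small-subunit protein found only in mitochondria, read 11.04, 10.94, 10.63 and 10.87 in control cells and 10.51, 10.06, 10.21 and 10.20 with MMS. It fell 1.54-fold without overlap (adjusted p = 0.00711). mRpL46, which has a Nudix-like fold, changed by -0.57 ± 0.17, a call that was lost without MMS 8 h replicate 2 (adjusted p = 0.0692) or control 8 h replicate 1 (0.0937). mRpL45, which in mammals ties the ribosome to the inner membrane near the exit tunnel, changed by -0.34 ± 0.10.

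mRpS5 went the other way at 8 h. It read 10.80, 10.55, 10.82 and 10.54 in control cells and 10.95, 11.36, 11.36 and 11.43 with MMS, with no overlap, a 1.51-fold increase (log2 change 0.60 ± 0.16, limma adjusted p = 0.00626). At 24 h the difference was 0.25 ± 0.16 (adjusted p = 0.335) and at 72 h -0.05 ± 0.16 (adjusted p = 0.854), at times when the control level itself was higher than at 0 h.

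**Figure D3:**
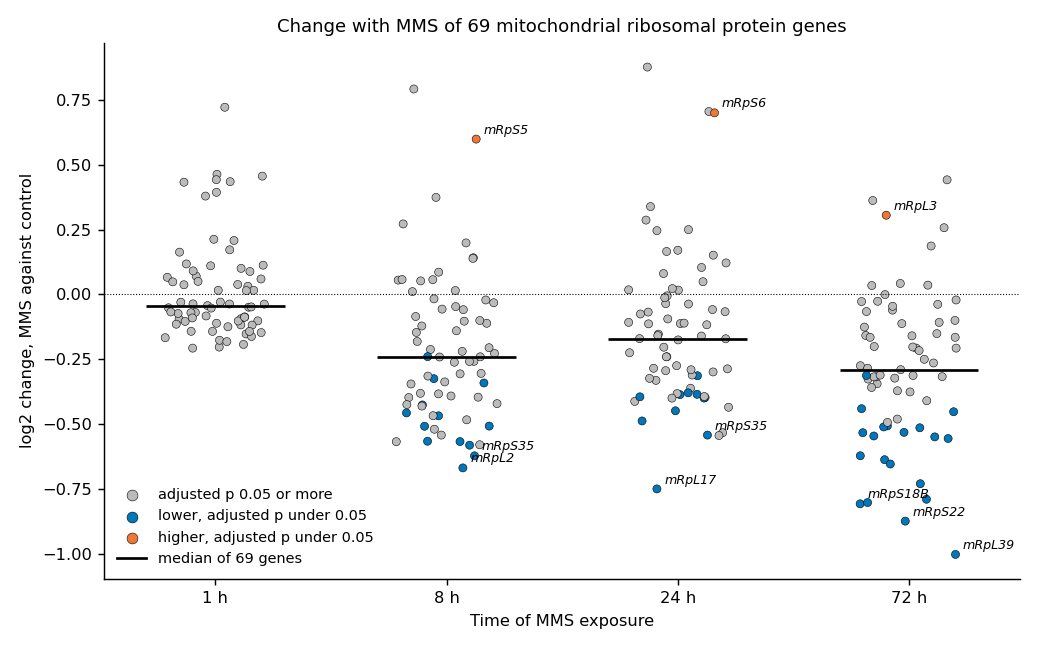
log2 change of MMS against control (y axis) for each of the 69 members at 1, 8, 24 and 72 h (x axis), coloured by the call at adjusted p under 0.05, with black lines for the median over members. The medians are -0.04, -0.24, -0.17 and -0.29, and 0, 13, 10 and 20 members were called lower.

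At 24 h of MMS 10 members fell and 1 rose, against 10% of all genes lower and 10.2% higher, and the median change was -0.17. In 14 members every MMS array lay below every control array (12.1% of all genes) and in 3 above (12%). The lower members were mRpL17, mRpS35, mRpL2, mRpS29, mRpL44, mRpS30, mRpL39, mRpL1, mRpS9 and mRpL38. mRpL17, a large-subunit protein with a bacterial counterpart, read 10.02, 10.19, 10.36 and 10.26 in control cells and 9.38, 9.25, 9.60 and 9.60 with MMS. The groups were well apart and the decrease was 1.68-fold (log2 change -0.75 ± 0.18, limma adjusted p = 0.00233). mRpS6 rose, from 8.52, 8.59, 8.62 and 8.71 to 9.24, 9.06, 9.34 and 9.60, a 1.62-fold change without overlap (adjusted p = 0.0251). The call of mRpS6 was lost without MMS 24 h replicate 3 (adjusted p = 0.0538), MMS 24 h replicate 4 (0.0969), control 24 h replicate 1 (0.0609) or control 24 h replicate 2 (0.0522).

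The calls of mRpL2 and mRpS35 at 24 h leaned on single arrays as well. mRpL2 (-0.49 ± 0.17, limma adjusted p = 0.0447) lost its call in 6 of 8 such fits, with adjusted p of 0.0958, 0.129 and 0.0584 without MMS 24 h replicates 1, 2 and 4 and of 0.08, 0.145 and 0.0809 without control 24 h replicates 2, 3 and 4. mRpS35 (-0.54 ± 0.17, adjusted p = 0.0185) lost it without MMS 24 h replicate 1 (0.0505), MMS 24 h replicate 2 (0.0675) or control 24 h replicate 3 (0.0785). The count of lower members was 6, 5 and 5 in these last 3 fits. In all, 2 members were higher without MMS 24 h replicate 2 or control 24 h replicate 3. Fitted on the 24 h arrays alone, 20 members were lower and 4 higher, against 11.1% and 11.4% of all genes. Without MMS 24 h replicate 2 the median change was -0.111.

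At 72 h of MMS 20 members fell and 1 rose, against 12.5% of all genes lower and 17% higher. The median change was -0.29, against -0.05 over all genes, and 61 of the 69 changes were negative. Of the members that fell, 12 belonged to the large and 8 to the small subunit. In 14 members every MMS array lay below every control array (12.3% of all genes), and in 0 members every MMS array lay above (15.9%). With the arrays centred on their medians, 39 members were lower and 0 higher, against 41.7% and 11.8% of all genes, and the median change was -0.45 where that of all genes was -0.21. Without MMS 72 h replicate 3 the count of lower members was 11 and the median change -0.181, and without control 72 h replicate 3 it was 12, and 2 members were higher without MMS 72 h replicate 3. The 3′ minus 5′ measure was 0.69 to 0.72 in MMS arrays and 0.54 to 0.63 in control arrays of 72 h (exact permutation test, two-sided p = 0.0286, the smallest that 4 against 4 arrays allow), and its part in these changes was not tested.

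mRpL39 was the one member lower by 2-fold with MMS at 72 h. Its control values were 10.31, 10.30, 10.59 and 10.45 and its MMS values 9.41, 9.45, 9.45 and 9.33. A gap far wider than either group's spread separated them, and the decrease was 2.00-fold (log2 change -1.002 ± 0.14, limma adjusted p = 6.91e-07). mRpS22, a mitochondria-specific small-subunit protein, read 10.27, 10.42, 10.50 and 10.61 in control cells and 9.56, 9.62, 9.55 and 9.57 with MMS. It fell 1.83-fold, again without overlap (log2 change -0.87 ± 0.14, adjusted p = 4.29e-06). mRpS18B read 10.04, 9.75, 10.19 and 10.05 in control cells and 9.27, 9.52, 8.89 and 9.12 with MMS, a 1.75-fold decrease (adjusted p = 0.000103).

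mRpS29, known in mammals as the death-associated GTP-binding protein DAP3, was lower at each time from 8 h on. At 8 h it read 10.30, 9.99, 9.81 and 10.03 in control cells and 9.73, 9.47, 9.41 and 9.47 with MMS. At 24 h the values were 9.43, 9.53, 9.70 and 9.50 against 9.07, 9.12, 9.14 and 9.04, and at 72 h 9.30, 9.43, 9.58 and 9.42 against 8.77, 8.68, 8.43 and 8.64. Treated and control arrays did not overlap at any of these times. The changes were -0.51, -0.45 and -0.80 (SE 0.12 each), with limma adjusted p of 0.00202, 0.00523 and 2.26e-06.

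**Figure D4:**
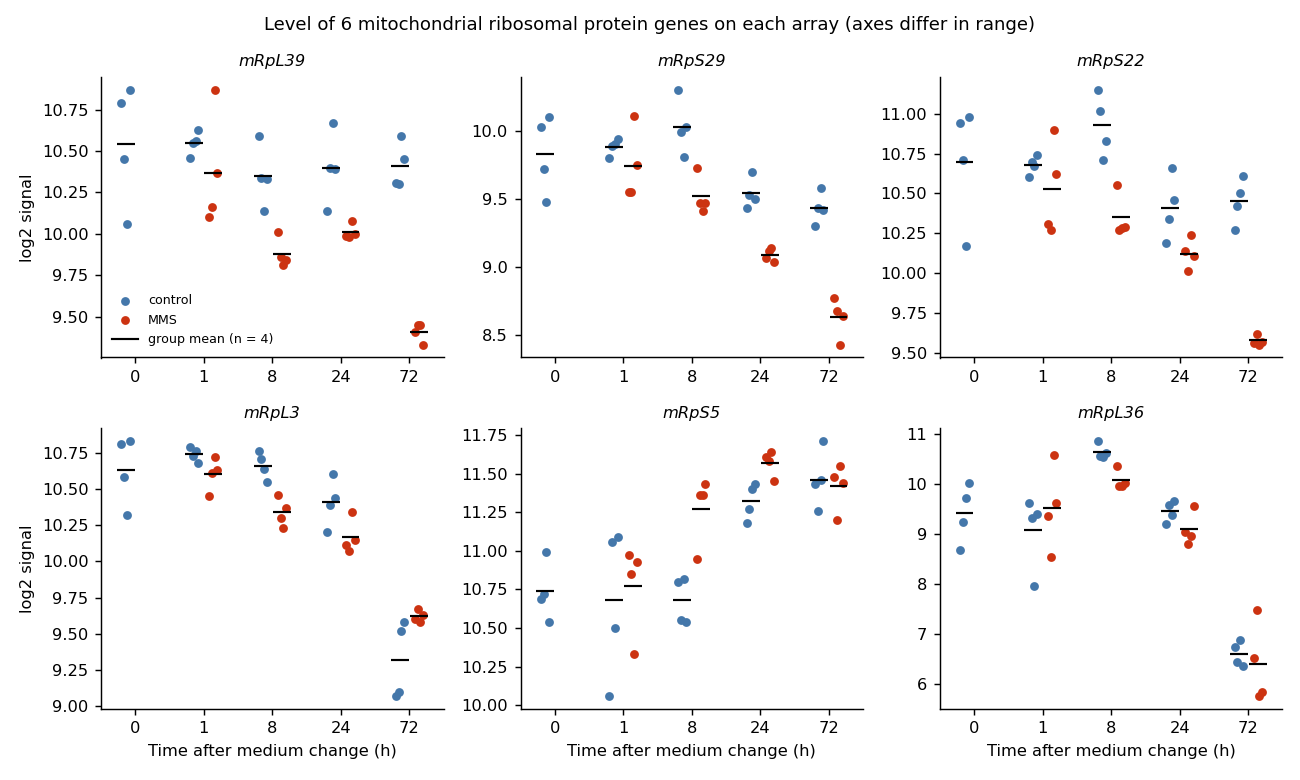
log2 signal on each array (points) and group means of 4 arrays (black bars) for mRpL39, mRpS29, mRpS22, mRpL3, mRpS5 and mRpL36 by time after the medium change in hours, with y axes that differ in range. The MMS arrays of mRpL39, mRpS29 and mRpS22 lie below the controls at 72 h, mRpL36 drops with time in both, and mRpS5 is high in both late groups.

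The calls at the 3 times use separate arrays but share each gene's estimate of the spread. mRpL17, mRpL38, mRpL39 and mRpS29 fell at 8, 24 and 72 h, 4 genes in all (2.26% of all genes did), and 28 members fell at 1 or more times (24% of all genes). mRpL38, which has a phosphatidylethanolamine-binding fold, had the smallest replicate spread of all members (pooled SD 0.10) and changed by -0.43, -0.31 and -0.53 (SE 0.08 each; limma adjusted p = 0.000184, 0.00357 and 2.78e-06). A further 12 members, mRpL9, mRpL11, mRpL18, mRpL23, mRpL32, mRpL41, mRpL43, mRpL49, mRpS18B, mRpS23, mRpS24 and mRpS25, passed the test at 72 h alone. In turn mRpL3, mRpL4, mRpL45 and mRpL46 were called lower at 8 h alone and mRpL44 at 24 h alone. For these groups the share of all genes was not counted, so their sizes cannot be set against all genes. They rest on the threshold at each time and do not test a difference between times. Of their members only mRpL3 passed such a test, given below. At none of the times did 39 members pass the test (55.5% of all genes), mRpL12, mRpS2, mRpS7 and mRpS11 among them. The stalk gene mRpL12 had changes of -0.11, -0.27 and -0.16 (SE 0.14 each).

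Whether the MMS effect itself differed between times was tested with interaction contrasts. Between 8 and 24 h 0 members passed (4.96% of all genes higher, 3.02% lower). In all, 6 members had an unadjusted p under 0.05 by limma, and the alternative fits gave 0 to 6 higher and 0 to 1 lower. The members with the lowest adjusted p were mRpL45 (0.42 ± 0.14, adjusted p = 0.0561), mRpL30 (0.65 ± 0.23, 0.0757), mRpL22 (0.43 ± 0.19, 0.175) and mRpL1 (-0.35 ± 0.16, 0.197). Between 24 and 72 h the effect on 2 members became more negative and on 1 more positive, against 4.53% and 9.13% of all genes. The effect on mRpL39 changed by -0.62 ± 0.20 (limma adjusted p = 0.0326) and that on mRpS22 by -0.58 ± 0.19 (adjusted p = 0.0377), and that on mRpS18B by -0.52 ± 0.22 (adjusted p = 0.12). The call of mRpL39 was lost in 6 of the 16 fits that left out 1 array (MMS 72 h replicate 4, control 72 h replicates 3 and 4, MMS 24 h replicate 3, control 24 h replicates 1 and 2), with adjusted p from 0.051 to 0.0908. That of mRpS22 was lost in the same 6 fits and without MMS 72 h replicates 1 or 3 or MMS 24 h replicates 1 or 4, with adjusted p from 0.0548 to 0.0972. Without the arrays of 8 h, 0 members became more negative.

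mRpL3 had the opposite course. With MMS it was lower at 8 h (-0.32 ± 0.11, limma adjusted p = 0.0286), was at -0.24 ± 0.11 at 24 h (adjusted p = 0.125), and was higher at 72 h (0.31 ± 0.11, adjusted p = 0.0304). At 72 h it read 9.07, 9.10, 9.52 and 9.58 in control cells and 9.60, 9.67, 9.58 and 9.63 with MMS, so the lowest MMS array equalled the highest control array to 2 decimals. The change of the effect from 24 to 72 h was 0.55 ± 0.15 (adjusted p = 0.012) and passed the test in all 16 fits that left out 1 array, but not with each array centred on its median (0.44, adjusted p = 0.0562). The 72 h call itself was lost without MMS 72 h replicate 2 (0.0592), MMS 72 h replicate 4 (0.0622), control 72 h replicate 1 (0.15) or control 72 h replicate 2 (0.122), and centring the arrays on their medians gave a 72 h change of 0.14 (adjusted p = 0.276).

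Genes of other mitochondrial lists were read with MMS at 72 h, and differences between lists were not tested. Over all genes 17% were higher and 12.5% lower. Of 14 mitochondrial aminoacyl-tRNA synthetases 7 were higher and 0 lower (median 0.27), led by GluRS-m (0.91 ± 0.13), and of 16 chaperones and proteases 9 were higher and 1 lower, with the protease Lon at 1.21 ± 0.11 after 1.42 ± 0.11 at 24 h. In transcription and RNA processing 4 of 14 were higher and 1 lower, with the transcription factor mtTFB2 at 1.05 ± 0.12. Translation factors were mixed, 2 of 8 higher and 4 lower, (median -0.13), with mEFTu2 at -0.72 ± 0.10 and mIF3 at 0.47 ± 0.13. Of the 75 respiratory chain and ATP synthase genes 7 were lower and 3 higher (median -0.11), and of the 41 cytosolic ribosomal protein genes 3 were lower and 0 higher (median -0.10). Of 7 regulators of growth and of mitochondrial genes 2 were higher and 0 lower, Dref, a factor of growth and replication genes (0.35 ± 0.12, after -0.64 ± 0.12 at 24 h), and crc, the fly ATF4 (0.30 ± 0.08). Ets97D, the fly counterpart of mammalian GABP alpha, changed by -0.45 ± 0.10 at 8 h, -0.33 ± 0.10 at 24 h and -0.17 ± 0.10 at 72 h, the last not past the test. tko changed by -0.61 ± 0.15 at 72 h (limma adjusted p = 0.00218) and bonsai by 0.01 ± 0.13.

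In control cells at 8 h against 0 h, 18 members rose and 4 fell (16.8% and 16.4% of all genes). The 8 that rose at least 2-fold, with the share of all genes again not counted, were mRpL33, mRpS21, mRpL42, mRpL55, mRpL27, mRpS16, mRpL36 and mRpS33. mRpL33 read 6.23, 6.26, 7.97 and 6.90 at 0 h and 9.33, 10.10, 10.51 and 10.16 at 8 h, a 9.08-fold difference without overlap (log2 change 3.18 ± 0.33, limma adjusted p = 1.64e-09). mRpS21 read 7.45, 7.41, 9.69 and 8.42 against 11.52, 11.11, 11.02 and 11.20, with the third 0 h array nearest to the later ones. These are the arrays whose RNA quality measures stood apart. Leaving out control 8 h replicate 1 gave 11 higher members. The count of lower members was 11 without control 0 h replicate 3 and 2 without control 8 h replicates 3 or 4 or control 0 h replicates 1 or 4. The call of mRpS33 was lost without control 8 h replicates 1 or 3 (adjusted p = 0.0542 and 0.051) and without control 0 h replicates 1 or 2 (0.133 and 0.0779).

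The members are short genes, and their length went with how they moved. In the Release 6 gene table they span 468 to 13391 bp with a median of 909 bp, against 2262.5 bp for all genes, and 40 are under 1000 bp, a bound chosen after the data were seen. Across the 69 genes, which share arrays and are not independent, length had a Spearman correlation of -0.76 with the pooled replicate SD, -0.57 with the control change from 0 to 8 h and 0.51 with that from 0 to 72 h, but only -0.10 to -0.20 with the MMS changes at 8, 24 and 72 h. The correlation of length with the change from 24 to 72 h was 0.659 in control cells and 0.755 in MMS-treated cells. The pooled SD of members ran from 0.10 (mRpL38) to 0.72 (mRpS21) with a median of 0.25, against 0.158 over all genes.

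At 72 h against 0 h in control cells 37 of 40 short members (92.5%, median -1.09) and 23 of 29 longer ones (79.3%, median -0.79) were lower. Of all 1920 genes under 1000 bp 16.9% were lower, and of longer genes 20.5%. Of the cytosolic ribosomal protein genes 1 of 18 short and 3 of 23 longer ones were lower. From 24 to 72 h, 38 short and 19 longer members were lower in control cells, and 40 and 25 in MMS-treated cells. Of all genes, 19.9% of short and 14.1% of longer ones were lower over that interval in control cells, and 35.3% and 17.0% in MMS-treated cells. With MMS against control of the same time, 12 of 29 longer and 1 of 40 short members were lower at 8 h, 10 and 0 at 24 h, and 8 and 12 at 72 h. All genes were split alike at the early times, with 13.2% of those at or over 1000 bp and 2.97% of shorter ones lower at 8 h and 11.6% and 1.98% at 24 h, against 12.7% and 11.5% at 72 h. The medians over short and longer members were close at 8 h (-0.23 and -0.26) and at 24 h (-0.17 in both). At 72 h the MMS arrays spread over 0.893 in the mean of short members and 0.259 in that of longer ones.

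**Figure D5:**
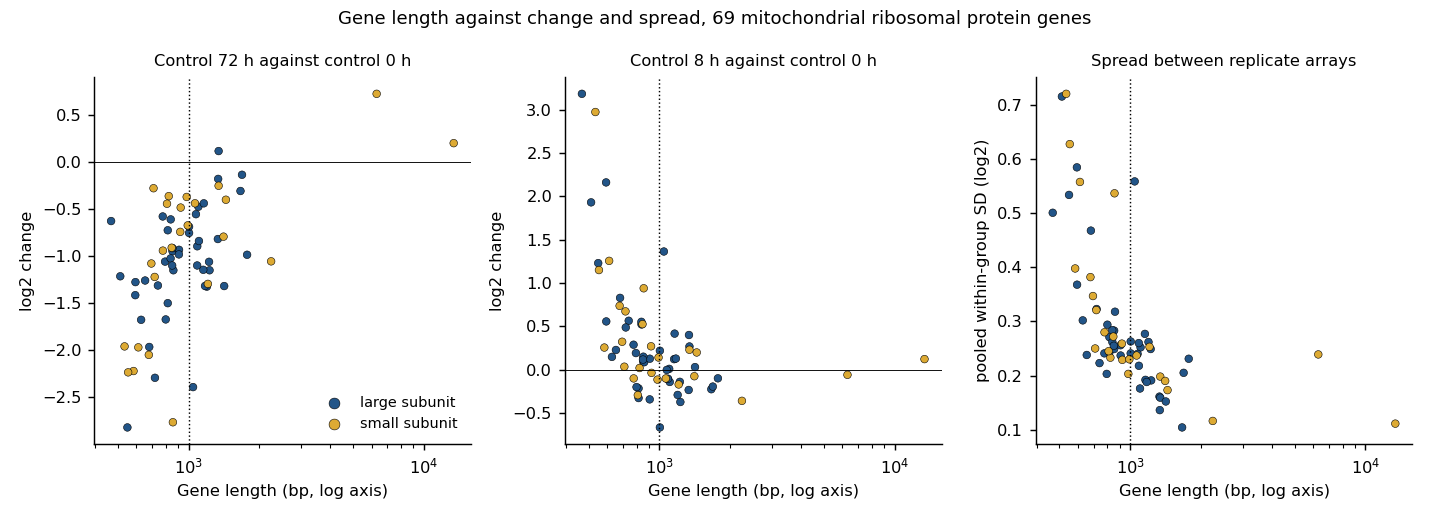
Gene length in bp (x axis, log scale; dotted line at 1000 bp) against the control change from 0 to 72 h (left), the control change from 0 to 8 h (middle) and the pooled within-group SD (right), all on the log2 scale, 1 point per member coloured by subunit. Short members spread more and reach the largest changes, with Spearman correlations of 0.51, -0.57 and -0.76.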

How the data were processed

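The authors deposited log2 values from robust multi-array averaging (RMA), 18952 probe sets on 36 arrays, with array medians of 4.47 to 4.66; its version was not given in the sources used here. Probe sets were named from the platform annotation: 13646 had 1 gene, 402 several, and for the 1094 genes with several probe sets the one with the highest mean was kept. All 69 members matched the gene table (Release 6). limma 3.58.1 (R 4.3.3) fitted 9 group means over all 36 arrays (27 residual and 5.37 prior degrees of freedom), with Benjamini-Hochberg adjustment over 11982 genes, calls at 0.05, and was tested on simulated data. The study's own ranking method for these arrays was replaced by limma. The fit shares 1 spread per gene over all groups. Arrays have no read depth; their number, 4 a group, limits the precision.

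Members and lists were chosen with earlier results of these data known. Members named are the 4 largest called changes each way in each MMS comparison and in control cells at 24 and 72 h, those past 2-fold, the 4 smallest adjusted p of each interaction and a list of members with known roles, along with those needed to complete small counts. Per the series design, replicates are separately grown cultures. The deviations of same-numbered MMS and control arrays from their group means were all positively correlated at 24 h only (0.36 to 0.53). These correlations ran from -0.44 to 0.20 at 1 h, from -0.03 to 0.46 at 8 h and from -0.29 to -0.01 at 72 h. The numbers were therefore not taken as pairs. Alternatives were other probe set, scaling, filter, spread, weight and fold rules, a replicate block and leaving out each array. Figures used matplotlib 3.10.9.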

Additional observations from a re-analysis of the deposited data

Results flagged for a closer look

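Within each group of 4 arrays, the gap between the extreme array and its nearest neighbour was divided by the group's range, and values over Dixon's 95% critical value for 4 samples are given here. Chance alone gives about 1 in 20 groups, and 33 of the 459 checked passed. Most came from the same few arrays.

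Control 1 h replicate 3 stood apart for the mean over all members (0.8405) and was the low array for mRpL20 (0.8591), mRpL27 (0.9448), mRpL32 (0.8902), mRpL49 (0.8693), mRpL51 (0.9161), mRpL52 (0.8999), mRpL55 (0.889), mRpS14 (0.9215), mRpS16 (0.8621), mRpS18A (0.8886), mRpS18C (0.8888) and mRpS33 (0.952), and the high array for mRpS30 (0.8401). MMS 1 h replicate 1 was high for mRpS30 (0.8902).

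MMS 8 h replicate 1 was high for mRpL16 (0.9136), mRpL17 (0.8307), mRpL2 (0.862), mRpL27 (0.8924), mRpL36 (0.8331), mRpS21 (0.8437) and mRpS22 (0.9224) and low for mRpS5 (0.845). Control 8 h replicate 1 was high for mRpL42 (0.8802) and mRpS14 (0.8648). Control 24 h replicate 1 was low for mRpL12 (0.8736), mRpL13 (0.9802) and mRpL20 (0.8416). Control 0 h replicate 4 was high for mRpL20 (0.95) and mRpL41 (0.8307). At 72 h, control replicate 4 was low for mRpL33 (0.8939), MMS replicate 3 low for mRpL44 (0.9497) and MMS replicate 2 high for mRpS9 (0.841).

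The effect of MMS differed between 24 and 72 h for 3 members by an interaction term in limma. It became more negative for 2 and more positive for 1, against 4.53% and 9.13% of all genes. It changed by -0.6157 for mRpL39 (adjusted p = 0.0326), by -0.5832 for mRpS22 (adjusted p = 0.0377) and by 0.5455 for mRpL3 (adjusted p = 0.012). The call of mRpL39 was lost in 6 and that of mRpS22 in 10 of the 16 fits that left out 1 array. That of mRpL3 was lost with each array centred on its median (limma adjusted p = 0.0562).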

How the results depend on the processing

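No named member with a call changed sign in any of the refits. Leaving out 1 array turned the sign of 4 member medians, which ran from -0.198 to 0.065 for MMS at 1 h, from -0.028 to 0.087 for the 8 to 24 h interaction, from -0.013 to 0.277 for control cells at 8 h and from -0.156 to 0.134 at 24 h. A further quantile normalization gave 0.058 for the last. In all, 535 of the 622 recomputed counts and medians stayed near their value. The fit shares 1 spread per gene over all 9 groups, so a change had to be larger to pass in short members, whose pooled SD was higher. At 8 h itself the array means of short members had SDs of 0.054 (control) and 0.059 (MMS). Those of longer members had SDs of 0.076 and 0.044. Counts are given as higher and lower members. The shares over all genes were recounted only for centred arrays at 72 h and for the groups compared alone at 8 and 24 h of MMS. Other refit counts have no such share beside them and cannot be set against all genes. The causes of the shifts were not tested. Fits on 2 or 4 groups estimate the spread from fewer arrays, and only from those of the groups compared. The SD of the member mean was 0.06 in control and 0.05 in MMS arrays of 8 h, against 0.13 to 0.42 in the other groups. With the arrays centred on their medians, the median change at 8 h of MMS was -0.314, the counts at 72 h of MMS were 0 and 39, 1 member was higher in the 8 to 24 h interaction and 0 in the 24 to 72 h one, 7 members were lower in control cells at 8 h, and 1 and 3 were called in control cells at 24 h. Centring moved the median of all genes at 72 h of MMS from -0.05 to -0.21 and that of control cells at 72 h against 0 h from -0.01 to -0.13. A further quantile normalization gave 0 and 31 at 72 h of MMS, 4 lower in the 24 to 72 h interaction and 2 higher in control cells at 72 h. Without dim genes 1 was higher in the 8 to 24 h interaction, 2 were lower in control cells at 24 h and 2 higher at 72 h. With only the groups compared, the counts were 3 and 33 at 8 h and 4 and 20 at 24 h of MMS, 0 higher at 72 h, 6 higher in the 8 to 24 h interaction, 2 lower in control cells at 8 h and 1 and 0 at 24 h. Array weights gave 3 and 23 at 8 h and 3 and 22 at 24 h of MMS, 3 and 1 in the 8 to 24 h interaction, and 7 lower at 8 h and 8 lower at 24 h in control cells. Asking for 1.5-fold as well left 2 lower at 8 h, 1 lower at 24 h and 0 and 9 at 72 h of MMS, 0 and 1 in the 24 to 72 h interaction, 1 lower in control cells at 8 h and 1 and 0 at 24 h. Without the 8 h arrays, an alternative chosen after the data were seen, 0 were higher at 24 h of MMS and 0 lower in the 24 to 72 h interaction.

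Leaving out 1 array at a time, the counts ran from 1 to 2 higher and 8 to 13 lower at 8 h of MMS, from 0 to 2 and 5 to 11 at 24 h, and from 0 to 2 and 11 to 25 at 72 h. They ran from 0 to 2 higher in the 8 to 24 h interaction and 0 to 3 lower in the 24 to 72 h one. In control cells they ran from 11 to 22 higher and 2 to 11 lower at 8 h, 1 to 4 and 0 to 10 at 24 h, and 1 to 2 and 53 to 63 at 72 h. With the replicate number as a block, 11, 9 and 19 members were lower at 8, 24 and 72 h of MMS and 60 in control cells at 72 h. At 24 h against 0 h in control cells 2 were higher under the block, where mRpS9 had an adjusted p of 0.0592. Of the same-numbered arrays 2, 3 and 0 of 4 correlated best with their own number at 8, 24 and 72 h.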
